A study of Homo sapiens with 6 samples.

Results

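The genes of the proteasome and its regulators were followed in RNA sequencing of Hep3B cells with and without a hairpin against DAGLA, which encodes diacylglycerol lipase alpha. The members were the protein-coding genes of GENCODE release 29 whose symbol is PSM, a letter from A to G and a number, together with POMP, ADRM1, SEM1 and NFE2L1. The rule named 52 genes in the annotation, and 51 of them were among the 29908 genes of the deposited table. PSMA8 was not analysed here. Genes were tested where their FPKM, the reads of a gene scaled to its exon length and to the reads of the library, averaged 0.5 or more across the 6 libraries. This held for 46 of the 51 genes and for 14221 genes in all. PSMA6, PSMD9, PSMB8, PSMB9 and PSMB11 were below it.

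The proteasome is the protease that degrades proteins tagged with ubiquitin. Its 20S core particle is a barrel of alpha rings, which gate the entry, and beta rings, which hold the protease sites in the subunits PSMB5, PSMB6 and PSMB7. The 19S regulatory particle caps the barrel. Its base holds ubiquitin receptors and the ATPases that unfold substrates, and its lid holds PSMD14, the metalloprotease that cuts ubiquitin chains off a substrate before it is degraded. Dedicated chaperones assemble both particles, other activators can take the place of the 19S cap, and the transcription factor NFE2L1 raises the transcription of the subunit genes together when proteasome activity is low. Subunits of a particle are needed in fixed proportions, and PSMB5 is the subunit blocked by the drug bortezomib.

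Hep3B is an established line of human hepatocellular carcinoma cells. The control group, Hep3B-Con, carried a control lentivirus. The sample titles call it shControl, whereas the design text of the series calls it an empty vector. The knockdown group, Hep3B-KD, carried a lentivirus with a short hairpin RNA against DAGLA. Both were infected at a multiplicity of infection of 5, selected with puromycin and grown in DMEM with serum according to the sample records, with 3 libraries per group that the design text calls biological replicates. The knockdown rests on a single hairpin in 1 cell line, so effects of DAGLA loss and of the hairpin itself cannot be told apart. DAGLA was at 9.28 ± 0.229 FPKM (SD, n = 3) in Hep3B-Con and at 4.62 ± 0.164 FPKM (SD, n = 3) in Hep3B-KD (log2 fold change -0.99, adjusted p = 5.25e-06, limma). The libraries held between 15861039 and 17572714 reads. The summed FPKM of 8 hepatocyte markers ranged from 2527 to 2577 in Hep3B-Con and from 4053 to 4072 in Hep3B-KD. Most of this sum was ALB, at means of 2042 FPKM in Hep3B-Con and 3315 FPKM in Hep3B-KD. Of the 8 markers, 7 were higher and 1 lower at an adjusted p under 0.05 from limma. By the same rule 36.1% of all genes tested were higher and 23.8% lower. The summed level of 5 fibroblast markers ranged from 8.92 to 10.4 FPKM in Hep3B-Con and from 5.05 to 5.75 FPKM in Hep3B-KD. Among them 3 of the 3 tested were lower, against 23.8% of all genes tested. Of 5 immune markers, 3 were in the table, with sums of 2.08 to 3.19 FPKM in Hep3B-Con and 3.04 to 4.04 FPKM in Hep3B-KD, nearly all from LYZ. PTPRC, which defines leukocytes, stayed near 0 (0.0276 and 0.0112 FPKM). No endothelial marker of the 3 listed exceeded 0.385 FPKM. In bulk RNA, fewer cells of a kind and less RNA per cell cannot be told apart. The part of these shifts in the values below was not tested.

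The hairpin's own sequence is shown first, so that stretches matching its guide strand can be compared between members. The study lists the 19 bases of the DAGLA transcript that the hairpin targets. The guide strand was taken as their reverse complement, with its first base opposite the last base of the target. Bases 2 to 8 of the guide, the seed, are in capitals in the guide, and the 7 bases that match the seed are in capitals in the target.
DAGLA target: gcgacaacaagGCCTTCAa
guide strand: tTGAAGGCcttgttgtcgc
The letters GCCTTCA were searched on the sense strand of the coding sequence and of the 3′ UTR in the complete protein-coding transcripts of the GENCODE basic set (GRCh38). Of the 46 members tested, 7 held at least 1 match (15.2%), against 31.8% of the 11292 tested genes with such transcripts. The matches of the members that fell most are given with the surrounding bases, which show how far the pairing runs. The match is in capitals, and the coordinates are those of the match.
PSMB5, coding sequence (codon 64), chr14:23034686-23034692, minus strand: ggaacaaccaccctgGCCTTCAagttccg
PSMB5, 3′ UTR, chr14:23025987-23025993, minus strand: atttatagtggaaggGCCTTCAattgtat
PSMD14, coding sequence (codon 159), chr2:161385476-161385482, plus strand: aaggttgttattgatGCCTTCAgattgat
PSMD14, 3′ UTR, chr2:161411426-161411432, plus strand: aacgctattaatgatGCCTTCAgtgtata
PSME3, 3′ UTR, chr17:42842148-42842154, plus strand: caagaaataccttagGCCTTCAgtcaatt
PSMG2, coding sequence (codon 80), chr18:12712712-12712718, plus strand: tgaagtgtattcattGCCTTCAagaaagc
PSMD13, coding sequence (codon 197), chr11:248796-248802, plus strand: gagcagcaggagagaGCCTTCAcgctggg
PSMD13, coding sequence (codon 239), chr11:248998-249004, plus strand: attgacaccctctatGCCTTCAacagtgg
At both PSMB5 matches, 9 bases in a row match the guide, so that the stretch GGCCTTCAA pairs with guide bases 1 to 9. The run is 7 bases at both PSMD14 matches and 9 bases at the PSME3 match. The other matches among the tested members lay in PSMG3, the proteasome assembly chaperone, and in SEM1, the smallest lid subunit, and both are shown for comparison. The run is 8 bases at the PSMG3 match and 9 bases at that of SEM1, as long as in PSMB5 and PSME3.
PSMG3, coding sequence (codon 27), chr7:1569255-1569261, minus strand: caggtggtgtgtacgGCCTTCAgcagtca
SEM1, 3′ UTR, chr7:96645848-96645854, minus strand: attcccagagtccagGCCTTCAttaactc
The SEM1 match lies in 2 of its 9 transcripts searched, and the PSME3 3′ UTR match in 5 of 7. PSME3 held a further match across an exon junction in the coding sequence of 1 of 7 transcripts.

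Across the members, most transcript levels differed little between the groups. Of the 46 members tested, 34 lay within 1.2-fold of equal, against 39.7% of all genes tested. At an adjusted p under 0.05 from limma, 11 members were lower and 16 higher in Hep3B-KD, whereas 19 did not pass. Of all 14221 genes, 23.8% were lower and 36.1% higher by the same rule, so in this fit the members' counts were near those of genes at large. The median log2 fold change was 0.03 over the members and 0.11 over all genes. The groups did not overlap in 11 members with the lower values in Hep3B-KD (26.3% of all genes) and in 18 with the higher values there (40.7% of all genes). Beyond 1.5-fold lay 3 members on the lower side, PSMB5, PSMD14 and PSME3, and PSMA2 on the higher side. The background was 7.97% of all genes lower and 16.0% higher. Both PSMB5 and PSMD14 were lower by at least 2-fold, which held for 2.94% of all genes, and no member was higher by that much, against 5.89% of all genes. When each library was centred on its median log ratio, 20 members were lower and 7 higher. Of all genes, 30.3% were then lower and 28.6% higher, with a median of 0.01. With quantile normalization 10 members were lower and 24 higher, against 27.4% and 30.0% of all genes. How near the members' counts were to genes at large therefore depended on the scaling. Over the 5 ways of scaling the libraries, 16 members passed in the same direction each time, 9 of them lower and 7 higher. The share of all genes that did so was not counted, so these numbers cannot be set against genes at large. PSMA7, PSMB4, PSMB7, PSMD1, PSMD8, PSMD11 and NFE2L1, which did not pass, were called lower with centring on the median log ratio and higher with quantile normalization.

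The beta ring of the core particle held both the largest fall and several subunits at a steady level. PSMB5 (ENSG00000100804) carries the chymotrypsin-like site, and lies on chromosome 14 of GRCh38 from 23016543 to 23035230. Its level was 151.0, 149.8 and 154.2 FPKM in the 3 Hep3B-Con libraries and 28.8, 29.6 and 30.2 FPKM in the 3 Hep3B-KD libraries. The groups lay far apart, and the libraries of a group were close to each other. Between 4531 and 4684 reads lay behind each Hep3B-Con value and between 806 and 883 behind each Hep3B-KD value. The Hep3B-KD mean was 19.4% of the Hep3B-Con mean, a log2 fold change of -2.36 (SE 0.0239, adjusted p = 3.82e-08, limma). Among all 14221 genes, PSMB5 had rank 46 from the lowest. The study itself had listed PSMB5 and PSMD14 in an overlap of genes changed in these libraries with gene sets from TCGA tumour data. Their falls are therefore a description and not independent evidence of a direction.

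The other protease subunits of the ring were not lower at the threshold. PSMB6, which carries the caspase-like site, was at 78.1, 78.9 and 81.4 FPKM in Hep3B-Con and at 99.01, 94.90 and 101.47 FPKM in Hep3B-KD, so that all values of the knockdown were higher (log2 fold change 0.31, SE 0.0300, adjusted p = 0.000149, limma). PSMB7, which carries the trypsin-like site, was at 100.02 ± 2.89 FPKM (SD, n = 3) in Hep3B-Con and at 95.1 ± 2.29 FPKM (SD, n = 3) in Hep3B-KD, with overlapping groups (log2 fold change -0.07, adjusted p = 0.0657, limma). It was called lower without Hep3B-Con replicate 1 (-0.09, adjusted p = 0.0309, limma) and without Hep3B-KD replicate 2 (-0.09, adjusted p = 0.0441, limma). It was also called lower with the libraries centred on the median log ratio (-0.18, adjusted p = 0.00178, limma) but higher with quantile normalization (0.10, adjusted p = 0.01004, limma). Of the structural subunits, PSMB3 was lower, at 117.2, 120.5 and 126.4 FPKM in Hep3B-Con and 87.6, 90.6 and 87.5 FPKM in Hep3B-KD (log2 fold change -0.45, SE 0.0313, adjusted p = 3.17e-05, limma). PSMB3 was the member with the largest fall among those without a match to the seed. PSMB1 was slightly higher (0.13, adjusted p = 0.0124, limma), a call that was lost when the libraries were centred on the median log ratio. PSMB2 and PSMB4 did not pass, with log2 fold changes of -0.04 and -0.02.

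**Figure D1:**
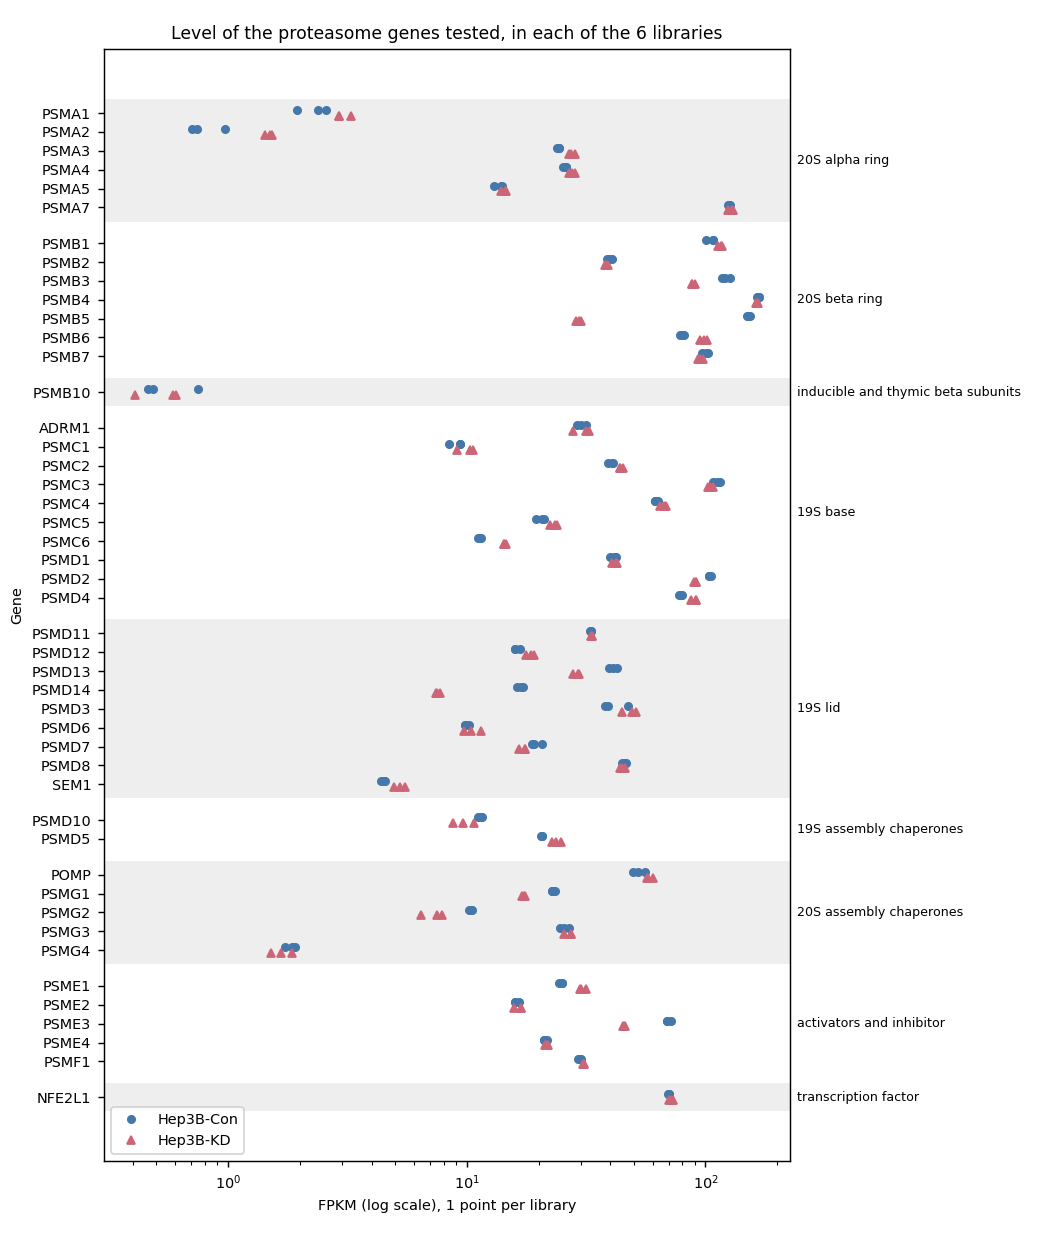
FPKM on a log scale of the 46 proteasome genes tested, grouped by their role in the particle, with 1 point per library (circles Hep3B-Con, triangles Hep3B-KD). PSMB5 drops from about the top of the 20S beta ring to its bottom, and PSMD14, PSME3 and PSMD13 also show well separated groups, whereas for most genes the circles and triangles nearly coincide.

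The order of the core subunits shows the same shift. In Hep3B-Con, PSMB5 stood second among the 14 core genes, below PSMB4 at 166.8 FPKM and above PSMA7 at 125.7 FPKM, with no overlap of the libraries on either side. In Hep3B-KD it stood eighth, below PSMB2 at 38.4 FPKM and above PSMA4 at 27.6 FPKM, again without overlap. PSMB4 and PSMA7 held the upper places there, at 164.2 and 127.8 FPKM. FPKM sets the reads against the length of all annotated exons of a gene, which differs between genes, so the order holds for that scale only.

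Set against its particle within each library, PSMB5 moved from above to below the median subunit, and how far below depended on which subunits were counted. Its log2 level minus the median of the 13 other core subunits was 1.96, 1.93 and 1.92 in the Hep3B-Con libraries and -0.43, -0.38 and -0.33 in the Hep3B-KD libraries. The means were 1.94 ± 0.0228 and -0.38 ± 0.0512 (SD, n = 3), so that the ratio fell by 2.32 on the log2 scale, or 4.99-fold (two-sided exact permutation test, p = 0.1, which is the lowest value possible for 3 against 3). Against the other beta subunits alone the ratio fell by 2.27 on the log2 scale. Without the subunits whose principal transcript overlaps another gene on the same strand, an alternative chosen after seeing the data, 10 others remained, and the ratio was 0.77 ± 0.0240 in Hep3B-Con and -1.63 ± 0.0427 in Hep3B-KD (SD, n = 3), a difference of -2.39. A scaling factor common to all genes of a library cancels in such a ratio. With quantile normalization the difference was -2.42 for PSMB5, but that version held tested genes only and so left out PSMA6. Its distance from the main value of -2.32 therefore cannot be put down to the normalization.

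The alpha ring, which forms the gate of the barrel, had 0 subunits lower and 4 of 6 tested higher (median log2 fold change 0.14). Over all genes tested, 23.8% were lower and 36.1% higher, with a median of 0.11. PSMA1 and PSMA2, among the subunits called higher, were at a low level and are described below. PSMA3 rose from 24.2 ± 0.310 to 27.6 ± 0.848 FPKM (SD, n = 3, log2 fold change 0.19, adjusted p = 0.00159, limma), and PSMA4 from 25.8 ± 0.372 to 27.6 ± 0.867 FPKM (SD, n = 3, 0.10, adjusted p = 0.0276, limma). The call of PSMA4 was lost when the libraries were centred on the median log ratio, and without any library other than Hep3B-KD replicate 3 (adjusted p between 0.0535 and 0.0821, limma). PSMA7, the most abundant subunit of this ring, was at 126.4, 126.1 and 124.6 FPKM in Hep3B-Con and at 129.8, 129.5 and 123.9 FPKM in Hep3B-KD, and the groups overlapped (log2 fold change 0.02, adjusted p = 0.403, limma).

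The largest rise of any member was that of PSMA2, but its level was low in every library. PSMA2 was at 0.704, 0.970 and 0.743 FPKM in Hep3B-Con and at 1.52, 1.49 and 1.43 FPKM in Hep3B-KD, from 66 to 90 and from 127 to 129 reads. The groups did not overlap (log2 fold change 0.82, SE 0.149, adjusted p = 0.00302, limma). PSMA1 was at 2.30 ± 0.317 and 3.03 ± 0.205 FPKM (SD, n = 3), and its rise of 0.39 (adjusted p = 0.0214, limma) was lost without Hep3B-KD replicate 3, with centring on the median log ratio (0.29, adjusted p = 0.0644, limma) and with quantile normalization (0.17, adjusted p = 0.228, limma). PSMA6 was below the limit for testing, with 27 to 50 reads per library. These values are uncertain, because the exons of these genes overlap other annotated genes on the same strand. The overlap covered 81.0% of the principal transcript of PSMA6, 53.2% of that of PSMA1 and 52.5% of that of PSMA2. PSMB10 (45.3%) and PSMD9 (43.8%) were the other members with a large overlap of this kind. All 5 were at a mean below 3 FPKM across the libraries, far under most other subunits. PSME2, with 0.07% of its principal transcript in such an overlap, was at a mean of 16.3 FPKM across the libraries. Whether reads in such overlaps were left out of the counts was not tested.

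The inducible beta subunits, which replace the constitutive protease subunits in the immunoproteasome after interferon, were nearly silent. PSMB8, which stands in for PSMB5 there, had 1, 0 and 2 reads in the Hep3B-Con libraries and 1, 0 and 2 in the Hep3B-KD libraries. PSMB9, which stands in for PSMB6, had 0, 0 and 2 reads and 4, 0 and 0 reads. At 3 reads or fewer over most libraries a difference was not detectable at this depth. PSMB10, which stands in for PSMB7, had 15, 24 and 15 reads in Hep3B-Con and 12, 18 and 18 in Hep3B-KD, with overlapping groups (log2 fold change -0.06, adjusted p = 0.869, limma). PSMB11, the thymic subunit, had 0 reads in all Hep3B-Con libraries and 4, 0 and 1 in the Hep3B-KD libraries. PSMB8 thus stayed at 2 reads or fewer in every library while PSMB5 fell.

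In the 19S lid, PSMD14 stood apart from its neighbours. PSMD14 (ENSG00000115233) lies on chromosome 2 of GRCh38 from 161308038 to 161411717. Its level was 17.0, 17.3 and 16.2 FPKM in Hep3B-Con and 7.43, 7.71 and 7.53 FPKM in Hep3B-KD. All values of the knockdown were below 8 FPKM and all values of the control above 16 FPKM, from 2071 to 2311 and from 907 to 962 reads. The Hep3B-KD mean was 45.0% of the Hep3B-Con mean (log2 fold change -1.14, SE 0.0373, adjusted p = 1.61e-06, limma). The log2 level of PSMD14 minus the median of the 18 other regulatory particle subunits was -1.07, -1.04 and -1.15 in Hep3B-Con and -2.06, -2.06 and -2.11 in Hep3B-KD. The ratio fell by 0.99 on the log2 scale, or 1.99-fold (p = 0.1 in the two-sided exact permutation test, again the lowest possible). The low starting point of PSMD14 depends on the length it is divided by, 7698 bases of annotated exon against 1954 bases in its principal transcript. Over the principal transcript, its reads would give 66.2 and 29.8 FPKM in Hep3B-Con and Hep3B-KD.

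PSMD13, a scaffold subunit of the lid, was lower as well. It was at 39.5, 42.6 and 40.8 FPKM in Hep3B-Con and at 29.4, 27.9 and 29.2 FPKM in Hep3B-KD, without overlap (log2 fold change -0.50, SE 0.0362, adjusted p = 3.75e-05, limma). PSMD7, the inactive partner of PSMD14 in the lid, fell by 0.18 on the log2 scale (adjusted p = 0.0114, limma), although 50.4% of its principal transcript overlaps a gene on the opposite strand and the strand of the counting is not given in the sources used here. Of the lid's 9 subunits, 3 were lower and 2 higher (median log2 fold change 0.01), against 23.8% and 36.1% of all genes. The subunits that were higher were PSMD12 (0.19, adjusted p = 0.00599, limma) and SEM1 (0.22, adjusted p = 0.0123, limma), and neither call held when the libraries were centred on the median log ratio. PSMD3 had the highest log2 fold change of the lid but did not pass (0.223, adjusted p = 0.0720, limma). It was at 47.1, 38.1 and 39.1 FPKM in Hep3B-Con and 44.5, 51.3 and 49.0 FPKM in Hep3B-KD. Here 1 control library lay among the knockdown libraries. Without that library, Hep3B-Con replicate 1, its log2 fold change was 0.32 and passed (adjusted p = 0.00689, limma). PSMD6, PSMD8 and PSMD11 did not pass, with log2 fold changes of 0.08, -0.03 and 0.01.

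In the 19S base, 5 of 10 subunits were higher and 2 lower (median log2 fold change 0.12), and no member passed 1.5-fold. The shares over all genes tested were 36.1% and 23.8%, with a median of 0.11. PSMC6, an ATPase of the base, had the largest rise, from 11.3, 11.4 and 11.1 FPKM to 14.5, 14.4 and 14.3 FPKM (log2 fold change 0.35, SE 0.0288, adjusted p = 7.06e-05, limma). PSMD2, which binds the ubiquitin-like domains of shuttle factors, had the largest fall, from 103.7, 105.3 and 103.5 FPKM to 91.5, 89.2 and 91.1 FPKM (log2 fold change -0.20, SE 0.0182, adjusted p = 0.000107, limma). The libraries of both genes were well separated, but the size was small, and the call of PSMD2 was lost with quantile normalization. Of the other ATPases, PSMC2 (0.14), PSMC4 (0.10) and PSMC5 (0.18) were higher, and PSMC3 was lower (-0.09), and each of these calls was lost under at least 1 scaling. PSMC3 changed sign with quantile normalization, to 0.09, and its call was lost without Hep3B-Con replicate 2 or 3 and without Hep3B-KD replicate 1 or 2 (adjusted p between 0.0961 and 0.128, limma). That of PSMC4 was lost without Hep3B-Con replicate 2 or 3 (adjusted p of 0.0510 and 0.0519, limma). PSMD4, a ubiquitin receptor, was higher at 90.0 ± 2.31 against 78.9 ± 1.06 FPKM (SD, n = 3, log2 fold change 0.19, adjusted p = 0.000546, limma). The receptor ADRM1, the scaffold PSMD1 and the ATPase PSMC1 did not pass, with log2 fold changes of 0.02, 0.02 and 0.14. For PSMC1, 82.1% of the principal transcript overlaps NRDE2 on the opposite strand, and without Hep3B-KD replicate 2 it was called higher (0.21, adjusted p = 0.0287, limma).

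**Figure D2:**
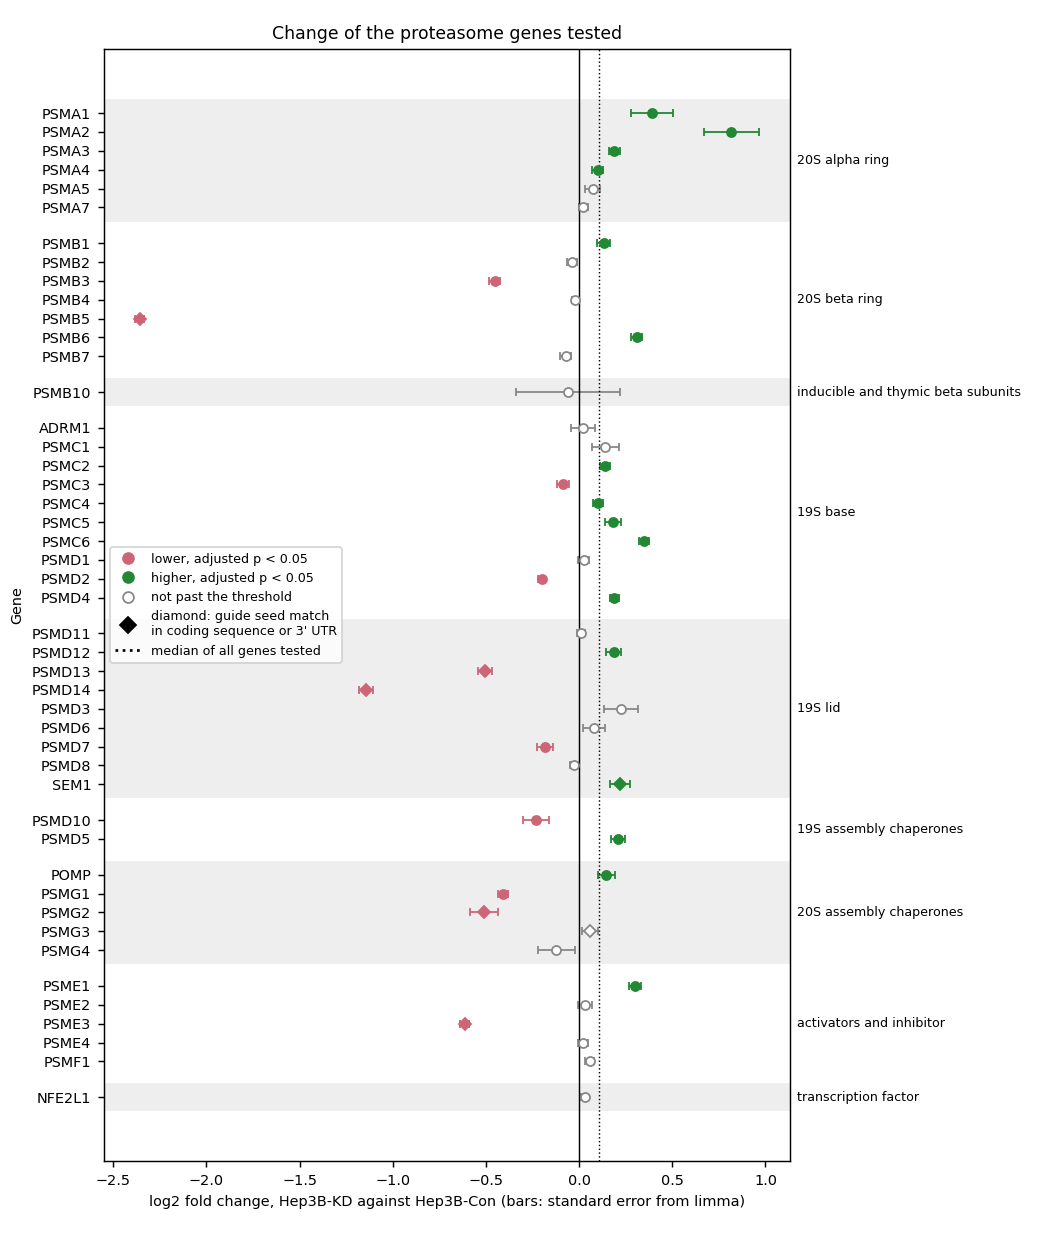
Log2 fold change of Hep3B-KD against Hep3B-Con with its standard error from limma for the 46 proteasome genes tested, grouped by role. Red marks genes that were lower and green genes that were higher at an adjusted p under 0.05, open symbols did not pass, diamonds match the seed of the guide, and the dotted line is the median of all genes at 0.11. PSMB5 at -2.36 and PSMD14 at -1.14 stand apart from the rest of their particles, and the 5 lowest values all belong to diamonds.

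Of the assembly factors, the pair PSMG1 and PSMG2, which form a heterodimer that starts the alpha ring, were both lower. PSMG2 was at 10.5, 10.2 and 10.4 FPKM in Hep3B-Con and at 7.91, 6.46 and 7.47 FPKM in Hep3B-KD (log2 fold change -0.51, SE 0.0746, adjusted p = 0.00108, limma). PSMG1 was at 23.4, 22.7 and 22.9 FPKM in Hep3B-Con and at 17.3, 17.5 and 17.1 FPKM in Hep3B-KD (log2 fold change -0.41, SE 0.0261, adjusted p = 2.24e-05, limma). The groups of both genes were separate, and both passed under every scaling. The other pair, PSMG3 and PSMG4, did not pass, with log2 fold changes of 0.06 and -0.12. POMP, the maturation factor of the core particle, was at 52.1, 49.6 and 56.0 FPKM in Hep3B-Con and at 56.9, 60.2 and 57.3 FPKM in Hep3B-KD (log2 fold change 0.15, adjusted p = 0.0331, limma), and leaving out any library other than Hep3B-Con replicate 3 ended this call. Of the chaperones of the 19S base, PSMD5 was higher, at 20.4, 20.6 and 20.6 FPKM against 23.7, 24.8 and 22.8 FPKM in Hep3B-KD (log2 fold change 0.21, adjusted p = 0.00228, limma). PSMD10, also known as gankyrin, was lower, at 11.1, 11.5 and 11.5 FPKM against 8.77, 9.67 and 10.7 FPKM in Hep3B-KD (-0.23, adjusted p = 0.0277, limma). The call of PSMD10 was lost without any of the 3 Hep3B-Con libraries and without Hep3B-KD replicate 2.

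Among the activators that can replace the 19S cap, PSME3 and PSME1 moved in opposite directions. PSME3 (ENSG00000131467), the nuclear activator of ubiquitin-independent degradation, was at 68.8, 68.8 and 71.6 FPKM in Hep3B-Con and at 46.0, 45.0 and 45.5 FPKM in Hep3B-KD. Every knockdown library was well below the controls (log2 fold change -0.62, SE 0.0231, adjusted p = 2.75e-06, limma). PSME1, a subunit of the activator induced by interferon, was at 25.0, 24.2 and 25.0 FPKM in Hep3B-Con and at 30.2, 31.7 and 29.7 FPKM in Hep3B-KD, without overlap (0.30, SE 0.0320, adjusted p = 0.000225, limma). Its partner PSME2 did not pass, at 16.2 ± 0.331 and 16.5 ± 0.595 FPKM (SD, n = 3, log2 fold change 0.03). PSME4 and the inhibitor PSMF1 did not pass either, with log2 fold changes of 0.02 and 0.06.

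NFE2L1, the transcription factor of the subunit genes, was at 69.9, 70.4 and 70.4 FPKM in Hep3B-Con and at 71.8, 70.3 and 72.8 FPKM in Hep3B-KD. The groups overlapped (log2 fold change 0.03, adjusted p = 0.230, limma). It was called lower when the libraries were centred on the median log ratio (-0.07, adjusted p = 0.0174, limma) and higher with quantile normalization (0.16, adjusted p = 0.000826, limma). The factor is known to be controlled largely through its protein, which was not measured here. Of 4 genes of its processing and the related factor NFE2L2, 3 were higher and 2 lower, against 36.1% and 23.8% of all genes. SEL1L, of the pathway that extracts proteins from the endoplasmic reticulum, was the highest (0.61, from 21.96 ± 0.607 to 33.5 ± 0.472 FPKM, SD, n = 3), and NFE2L2 the lowest (-0.32, from 31.6 ± 0.587 to 25.4 ± 0.816 FPKM, SD, n = 3). NGLY1 (0.36) and DDI2 (0.18), which deglycosylate and cleave the factor, were higher, and SYVN1 was lower (-0.29). The call of DDI2 was lost in 2 of the 5 scalings, where its log2 fold change was as low as 0.06.

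The letters TGACNNNGC, a form of the antioxidant response element that NFE2L1 and its relatives bind, were searched on both strands of RefSeq promoters (GRCh38.p14, 250 bases before to 50 after the start). Promoters were at hand for 46 of the 51 members, tested or not, and 17 of them (37.0%) held the letters, against 19.6% of the 9354 tested genes with a promoter. Some are shown to let the shared core be seen, with the letters in capitals.
PSMA4, chr15:78540650-78540678, plus strand: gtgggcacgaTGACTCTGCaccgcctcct
PSMB3, chr17:38752627-38752655, plus strand: gcctccgtttTGACTTTGCaaccaaacta
PSMD12, chr17:67366724-67366752, minus strand: agacaaaaccTGACGCTGCaggctggagt
PSME1, chr14:24136098-24136126, plus strand: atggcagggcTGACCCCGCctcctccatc
The log2 fold changes of the tested members with the letters ran from -0.51 for PSMG2 to 0.30 for PSME1, so they include members that fell and members that rose. The promoters of PSMB5 and PSMD14 held no match in this window. The letters CCAAT were in the promoters of 23 of the 46 members (50%), against 43.6% of the tested genes.

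By seed match, the members divided as follows. Of the 7 members with a match, 5 were lower, 1 was higher and 1 did not pass, and their median log2 fold change was -0.51. Of the 39 tested members without a match, 6 were lower and 15 higher, with a median of 0.06 and a lowest value of -0.45. The 5 members with the lowest log2 fold changes, PSMB5, PSMD14, PSME3, PSMG2 and PSMD13, all held a match. PSMG3 and SEM1 held one as well and had log2 fold changes of 0.06 and 0.22, so a match did not go with a fall in every member. Over all genes, the median log2 fold change was -0.01 for the 3587 genes with a match and 0.12 for the 7705 without, and 36.5% against 23.6% were lower. Of the genes with a match, 5.69% were lower by at least 2-fold, against 1.79% of those without any match. This share was 4.22% for genes with a match in the coding sequence and 8.19% for those with one in the 3′ UTR. At least 2 matches to guide bases 1 to 9 were held by 18 genes, 0.159% of those searched, PSMB5 among them. The median of these 18 was -0.32. This class has the form of the PSMB5 matches and holds PSMB5 itself, so it is a description and not separate evidence. The equally long runs of PSME3 and SEM1 do not start at guide base 1 and are outside it. Whether the hairpin acted on any of these transcripts through such a match was not tested, and no library with another hairpin was analysed here.

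Genes around the proteasome gave a mixed picture. Of 13 proteasome-associated factors, 3 were lower and 2 higher (median log2 fold change 0.01), against 23.8% and 36.1% of all genes tested. The lowest was ECPAS, an adaptor that binds the proteasome under stress, at 18.6 ± 0.0446 FPKM in Hep3B-Con and 15.1 ± 0.348 FPKM in Hep3B-KD (SD, n = 3, log2 fold change -0.30), and the highest was the ubiquitin ligase UBE3C (0.13). Of the deubiquitinases that sit on the 19S particle beside PSMD14, USP14 was lower (-0.14, adjusted p = 0.0113, limma) and UCHL5 did not pass (0.01). Of 11 genes of ubiquitin supply and of the p97 segregase, 3 were lower and 4 higher. The highest was UBA6 (0.29), an enzyme that activates ubiquitin. RPS27A, a fusion of ubiquitin with a ribosomal protein, was lower (-0.27), whereas the polyubiquitin gene UBB was higher (0.15), a call that was lost when the libraries were centred on the median log ratio.

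The peptides that the proteasome makes are loaded onto class I molecules. Of 11 genes of this pathway, 9 were tested. Of these, 5 were higher and 0 lower (median log2 fold change 0.31), against 36.1% and 23.8% of all genes, whose median was 0.11. TAPBP, which helps to load the peptides, rose from 8.70 ± 0.263 to 12.6 ± 0.314 FPKM (SD, n = 3, log2 fold change 0.53), and HLA-C (0.49) and B2M (0.31) were also higher. The lowest was TAP2, which did not pass (-0.08). HLA genes share closely related sequence, and their reads may be split between them. NLRC5, the activator of class I genes, was at 0.0173 and 0.0231 FPKM and was not tested.

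Near copies and antisense genes were looked at where they could blur a member's value. Processed pseudogenes of PSMA2, PSMA6, PSMC1, PSMD7, PSMD10 and PSME2 had between 0 and 41 reads in a library. Adding these reads to their parents left every tested member on its side of the threshold. The antisense gene PSMA3-AS1 was at 2.54 ± 0.183 FPKM in Hep3B-Con and at 5.04 ± 0.236 FPKM in Hep3B-KD (SD, n = 3, log2 fold change 0.96, adjusted p = 4.33e-05, limma), a larger rise than that of PSMA3 itself. PSMG3-AS1 also rose (0.54, adjusted p = 0.000876, limma), from 1.65 ± 0.0660 to 2.45 ± 0.105 FPKM (SD, n = 3).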

How the data were processed

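RNA of 6 Hep3B samples was sequenced as mRNA libraries. Samples were assigned to groups from the GEO titles. The authors deposited FPKM values for 29908 Ensembl genes, 1 column per library. The submitters' processing notes name Bowtie2 2.0.6, TopHat2 2.0.12 and GRCh37, without roles. Every identifier was found in GENCODE release 29 (GRCh38), and with its exon lengths 100% of the deposited FPKM values gave whole reads (tolerance 0.01), so coordinates follow that release. The counting tool is not given in the sources used here. The reads recovered in this way totalled 17572714, 17381999 and 16644962 for the Hep3B-Con replicates and 15861039, 16060425 and 16593115 for the Hep3B-KD replicates. Replicates differed beyond sampling noise (chi-square per gene 1.80 to 3.30).

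Genes averaging 0.5 FPKM or more were tested on log2(FPKM + 0.1) with limma 3.58.1 (lmFit, eBayes with trend, R 4.3.3) and Benjamini-Hochberg adjustment over all 14221 genes. That scale understates changes of low genes. The fit was also run on simulated data as a check. Fold thresholds were 2 and 1.5. Particle ratios were compared with exact permutation tests. Alternatives covered filters, pseudocounts, scalings, the prior, the replicate block, voom on recovered reads, pseudogene reads and each library left out. The ratio without subunits that overlap on the same strand was added after seeing the data. Members and lists were chosen with earlier results of these data known. Library values are given for PSMB5, PSMD14, the lowest and highest tested member of each role, members past 1.5-fold, PSMB8 to PSMB10 and NFE2L1, and, chosen after their values were seen, PSMB3, PSMB11, PSMD13 and PSMG1. Some genes of the pathway lists are counted in their list but not reported here, and others were named after their values were seen. Seed matches were searched in all basic complete coding transcripts. Tables and figures were made with matplotlib 3.10.9, scipy 1.17.1, pandas 2.3.3 and numpy 2.4.6 (Python 3.11.15).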

Additional observations from a re-analysis of the deposited data

How the results depend on the processing

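Over the 17 alternatives, PSMB5, PSMD14, PSME3, PSMD13, PSMG1, PSMG2, PSMB3 and PSMD7 stayed lower and PSMA2, PSMA3, PSMB6, PSMC6, PSMD4, PSMD5 and PSME1 stayed higher at an adjusted p under 0.05 from limma. PSMB5 ranged from -2.46 to -2.23 and PSMD14 from -1.25 to -1.06. The 2 members lower by at least 2-fold were counted as 2 in every alternative. Over the tested members and all alternatives, 693 values kept direction and side of the threshold, 43 lost the call, 20 gained one and 25 changed sign. Centring on the median log ratio gave 20 members lower and 7 higher, against 11 and 16 in the main fit. With this centring 30.3% of all genes were lower and 28.6% higher, and their median moved from 0.11 to 0.01. Under it the log2 fold changes that changed sign were -0.083 for ADRM1, -0.074 for NFE2L1, -0.0044 for PSMA4, -0.031 for PSMA5, -0.080 for PSMA7, -0.0021 for PSMC4, -0.079 for PSMD1, -0.094 for PSMD11, -0.024 for PSMD6, -0.073 for PSME2, -0.081 for PSME4, -0.047 for PSMF1 and -0.043 for PSMG3. With quantile normalization PSMB2 (0.075), PSMB4 (0.155), PSMB7 (0.098), PSMC3 (0.091) and PSMD8 (0.096) changed sign. With the same FPKM sum PSMB4 (0.0038) and PSMD8 (0.00072) did. With each library left out in turn, 9 to 11 members were lower and 13 to 15 higher. Of all genes, 21.8% to 22.5% were then lower and 32.6% to 33.7% higher. The PSMB5 ratio differed by -2.34 to -2.29 and the PSMD14 ratio by -1.02 to -0.97 on the log2 scale. DAGLA ranged from -1.02 to -0.97, ADRM1 from -0.022 to 0.087 and PSMB10 from -0.17 to 0.13.

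Libraries with the same replicate number did not deviate together (correlations of -0.01, -0.07 and -0.0011), so the numbers do not pair them. With the replicate block, 11 members were lower and 13 higher, against 22.2% and 33.5% of all genes. POMP, PSMA1 and PSMA4 no longer passed. In this balanced design the block leaves every estimate as it was, so only the p-values could move. The ratio of PSMB5 thus again fell by 2.32 and that of PSMD14 by 0.99 on the log2 scale. DAGLA was again at -0.99 with the block (adjusted p = 0.000359, limma).

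With 3 libraries per group the permutation tests of the ratios cannot pass 0.05, so they say nothing about stability. PSMA1, PSMA2, PSMA6, PSMB10 and PSMD9 rest on few reads and on exons that overlap other genes. PSMB8, PSMB9 and PSMB11 were at or near 0 reads, and a change of theirs was not detectable at this depth. No protein or proteasome activity was measured in these files.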
